A study of Mus musculus with 8 samples.

Results

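The 10 genes described here encode sensors of foreign or misplaced nucleic acid and the proteins that pass their signal on. They were taken by gene name, and all 10 were found among the 43346 genes of the table, each under 1 gene ID. Their RNA was measured by poly-A RNA sequencing in 4 libraries of the mouse line LLC1 and 4 of the mouse line MLE12, both obtained from ATCC, grown to about 80% confluence and given no reagent. LLC1 is the Lewis lung carcinoma line, from a tumour of a C57BL mouse. MLE12 is an established lung epithelial line that came from a tumour of a transgenic mouse in which the surfactant protein C promoter drove the SV40 large T antigen. Each group is 1 cell line, so differences in strain, transformation and culture history cannot be told apart. Whether the 4 libraries of each line come from separate cultures is not given in the labels, and p-values measure only the spread between these libraries.

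RIG-I (Ddx58) and MDA5 (Ifih1) are helicases that bind double-stranded RNA in the cytosol, and LGP2 (Dhx58) is a relative without the signalling domains, which modulates both. RIG-I and MDA5 signal through MAVS on the outer mitochondrial membrane. TLR3 is not cytosolic: it recognises double-stranded RNA in endosomes and signals through TICAM1. cGAS (Mb21d1) binds cytosolic DNA and makes the messenger cyclic GMP-AMP, which activates STING (Tmem173) at the endoplasmic reticulum. All of these routes reach TBK1, the kinase that phosphorylates the transcription factors IRF3 and IRF7, which induce type I interferon genes. Ddx58, Ifih1, Dhx58, Tlr3 and Irf7 are themselves known to be interferon-inducible.

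Library totals ran from 46840648 to 55285307 counts in LLC1 and from 48643667 to 76722481 counts in MLE12. Levels are given as CPM, the count of a gene scaled to a fixed library size after TMM normalization between libraries, as mean ± SD (n = 4 per line). Log2 fold changes are LLC1 over MLE12, ± SE, so that negative values are higher in MLE12, and p-values of single genes come from edgeR (quasi-likelihood fit), adjusted by Benjamini and Hochberg's method over the 18546 genes tested. The lung epithelial markers Nkx2-1, Sftpc, Sftpb, Cdh1 and Epcam summed to 348 to 369 CPM in MLE12 libraries and 1.62 to 1.78 CPM in LLC1 libraries, so the defining epithelial genes were nearly absent from the carcinoma line. Of 15 leukocyte genes 5 were tested, 2 being higher in LLC1 and 2 in MLE12; Adgre1 and Ncr1 were at 0 in every library and Ptprc, the pan-leukocyte gene, had 0 counts in LLC1 and 2 in MLE12. The leukocyte sum was 26.8 to 27.7 CPM in LLC1 and 16.1 to 18.8 CPM in MLE12, made up mainly of Csf1r (10.5 CPM), Cd68 (8.37) and Itgax (7.34) in LLC1 and of Csf1r (12.8 CPM), Cd68 (2.17) and Cd74 (1.8) in MLE12. Of 8 fibroblast and endothelial genes, 5 were tested and 3 were higher in MLE12, Dcn, Col1a1 and Pdgfrb, while Lum had a mean of 0.00935 CPM (LLC1) and 0.218 CPM (MLE12). That list summed to 4.89 to 5.41 CPM in LLC1 and 330 to 365 CPM in MLE12. Nearly all of the MLE12 sum came from Dcn (319 ± 15.8 CPM), so it says little about the other genes of the list. The part of either list in the results below was not tested. In bulk RNA, fewer cells expressing a gene and less RNA per cell cannot be told apart.

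All 4 RNA sensor genes and the DNA sensor gene were higher in MLE12, and both adaptor genes, Mavs and Tmem173, were higher in LLC1. Every one of the 10 genes passed the test, 8 higher in MLE12 and 2 higher in LLC1. That many calls has to be read against the whole table, where 81.6% of genes were called, 40.7% higher in LLC1 and 40.9% higher in MLE12. For none of the 10 did the libraries of the lines overlap. How many of all genes lack such overlap was not counted, so this does not set the 10 apart. A stricter test against a fold change of 2 (edgeR's glmTreat) retained 6 of the genes higher in MLE12 and 1 higher in LLC1, where it retained 33.7% of all genes, 16.7% and 16.9% in the LLC1 and MLE12 directions. Mavs, Irf3 and Tbk1 did not pass it. The median log2 fold change of the 10 genes was -1.79, beside 0.02 over all genes tested.

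**Figure D1:**
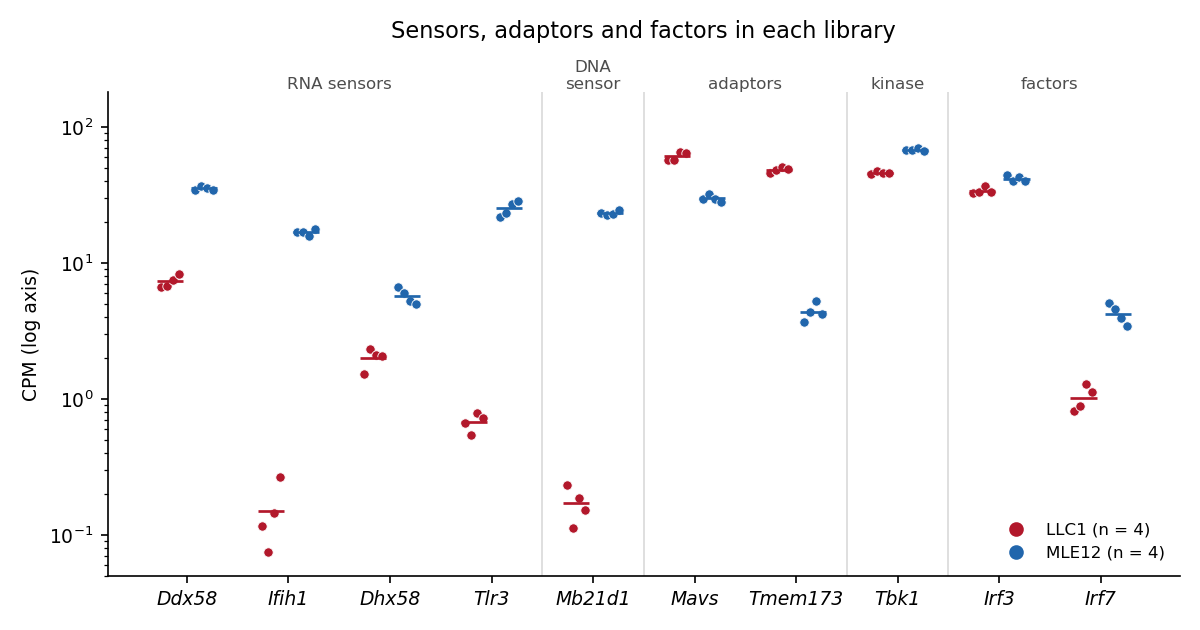
CPM of each of the 10 genes in each library on a log axis, LLC1 in red and MLE12 in blue; points are libraries and lines are means (n = 4 per line). Ifih1 and Mb21d1 lie below 0.3 CPM in every LLC1 library and above 15 CPM in every MLE12 library, while Tmem173 is near 48.5 CPM in LLC1 and 4.37 CPM in MLE12.

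Since several of these genes are known to be interferon-inducible, the windows around their transcription starts were searched for the core of the interferon-stimulated response element (ISRE), a site bound by IRF proteins. The motif was GAAANNGAAA, or TTTCNNTTTC on the other strand, with matches allowed to overlap, and the windows ran from 250 bases before to 50 bases after the start in RefSeq's annotation of GRCm38.p6. Windows were given for 8 of the 10 genes, all but Dhx58 and Tmem173. A core was found in 2 of the 8, Ifih1 and Ddx58, beside 3.44% of all 32851 windows. Both matches lie just after the annotated start, at bases 33 to 42 in Ifih1 (shown: chr2:62646206-62646233, minus strand) and at bases 3 to 12 in Ddx58 (chr4:40239804-40239833, minus strand). In the windows of Mb21d1, Tlr3, Mavs, Irf3, Irf7 and Tbk1 these letters were not found. A match is a description of sequence, and no binding was measured. The 2 stretches are printed 5′ to 3′ on the strand of the gene with the core in capitals, because it is the motif that only these of the 8 searched genes hold.
Ifih1: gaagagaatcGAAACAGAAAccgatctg
Ddx58: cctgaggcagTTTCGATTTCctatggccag

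Among the cytosolic RNA helicases, Ifih1 differed most. Ifih1 (ENSMUSG00000026896, chromosome 2, 62595798 to 62646255, mm10) stood at 0.116, 0.0748, 0.145 and 0.266 CPM in LLC1 replicates 1 to 4, and at 16.9, 17, 15.9 and 17.7 CPM in those of MLE12. LLC1 was low in all 4 libraries, with only 30 counts in all against 4729 in MLE12. The log2 fold change was -6.78 ± 0.17, a 110-fold difference (adjusted p = 5.93e-18, edgeR). Its highest LLC1 library held 14 counts (95% Poisson interval 7.65 to 23.5) and its lowest 4 (1.09 to 10.2), and these intervals, which cover counting error only, overlap.

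Ddx58, which encodes RIG-I (ENSMUSG00000040296, chromosome 4, 40203773 to 40239828), was at 6.66, 6.75, 7.54 and 8.33 CPM in LLC1 and at 34.6, 37.1, 35.7 and 34.3 CPM in MLE12. It thus kept a clear level in LLC1, 7.32 ± 0.783 CPM, against 35.4 ± 1.27 CPM in MLE12. The log2 fold change was -2.27 ± 0.07, or 4.83-fold (adjusted p = 3.63e-16). Dhx58, which encodes LGP2 (ENSMUSG00000017830, chromosome 11, 100694884 to 100704271), differed least of the helicase genes. It stood at 1.53, 2.32, 2.09 and 2.06 CPM in LLC1 and at 6.66, 6.02, 5.28 and 5.02 CPM in MLE12, again without overlap. Its log2 fold change was -1.52 ± 0.14, or 2.87-fold (adjusted p = 7.05e-09). The span of Dhx58 from start to end, introns included, shares 2637 bases with that of Dhx58os on the other strand. The strand setting of the counting is not given. Dhx58os had 7 to 15 counts in LLC1 libraries and 24 to 66 in MLE12 libraries, beside 66 to 124 and 251 to 515 for Dhx58.

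The helicase genes therefore stood in different proportions in each line. Per length (TPM, counts divided by the deposited gene length and scaled to the same total in each library), the ratio of Ddx58 to Ifih1 was 66.7, 105, 60.4 and 36.2 in the LLC1 libraries and 2.37, 2.53, 2.60 and 2.25 in the MLE12 libraries. The ratio was 25.7-fold larger in LLC1, a difference of 4.68 on the log2 scale (exact two-sided permutation test, p = 0.0286, adjusted p = 0.0286 over 6 ratios). That is the smallest p that 4 libraries against 4 can give, and all 6 ratios tested here gave it. Dhx58 was 19.3 to 77.4 times Ifih1 in LLC1 and 0.708 to 0.984 times in MLE12, a difference of 5.43 on the log2 scale (exact permutation p = 0.0286). Since Ifih1 had 4 to 14 counts per LLC1 library, these ratios are imprecise there. Ifih1 differed so much more than Ddx58 or Dhx58 that the single-gene levels already fixed both p-values, which add no evidence.

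Tlr3, the endosomal receptor (ENSMUSG00000031639, chromosome 8, 45395665 to 45410608), was at 0.67, 0.543, 0.785 and 0.723 CPM in LLC1 and at 21.8, 23.4, 27.0 and 28.6 CPM in MLE12. The MLE12 libraries spread over 25.2 ± 3.12 CPM, and the lowest of them was still far above the highest LLC1 library. The log2 fold change was -5.21 ± 0.13, or 37-fold (adjusted p = 5.43e-18). Ticam1, the adaptor through which TLR3 signals, missed the threshold (LLC1 12.3 ± 1.14, MLE12 12.5 ± 0.663 CPM, log2 fold change -0.02 ± 0.08, adjusted p = 0.778).

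The DNA sensing pair diverged. Mb21d1, the cGAS gene (ENSMUSG00000032344, chromosome 9, 78430526 to 78443237), was at 0.231, 0.112, 0.186 and 0.152 CPM in LLC1 and at 23.4, 22.4, 23.0 and 24.6 CPM in MLE12. LLC1 libraries held 6 to 10 counts each, 33 in all against 6539 in MLE12. The log2 fold change, -7.11 ± 0.13 or 138-fold, was the largest of the 10 genes in size (adjusted p = 6.31e-20), and 4.5% of all genes tested differed by more. The span of Mb21d1 shares 280 bases with that of Gm8093 on the other strand. Gm8093 had 69 to 131 counts in MLE12 libraries and 0 in LLC1.

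Tmem173, the STING gene (ENSMUSG00000024349, chromosome 18, 35733678 to 35740554), went the other way. It was at 45.9, 48.0, 50.9 and 49.3 CPM in LLC1 and at 3.69, 4.39, 5.22 and 4.18 CPM in MLE12. Every LLC1 library was far above every MLE12 library, with a log2 fold change of 3.47 ± 0.08, or 11.1-fold (adjusted p = 7.02e-18). MLE12 still held 209 to 411 counts of Tmem173 per library. Set against Mb21d1 per length, Tmem173 was 356, 766, 491 and 580 times as abundant in the LLC1 libraries and 0.283, 0.351, 0.406 and 0.305 times in the MLE12 libraries. The log2 ratio differed by 10.63 between the lines (exact permutation p = 0.0286). Since Tmem173 was higher in every LLC1 library and Mb21d1 in every MLE12 library, that p was fixed by the single-gene levels and adds no evidence. Per length, Tmem173 RNA thus exceeded Mb21d1 RNA in all 4 LLC1 libraries, and Mb21d1 RNA exceeded Tmem173 RNA in all 4 MLE12 libraries.

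**Figure D2:**
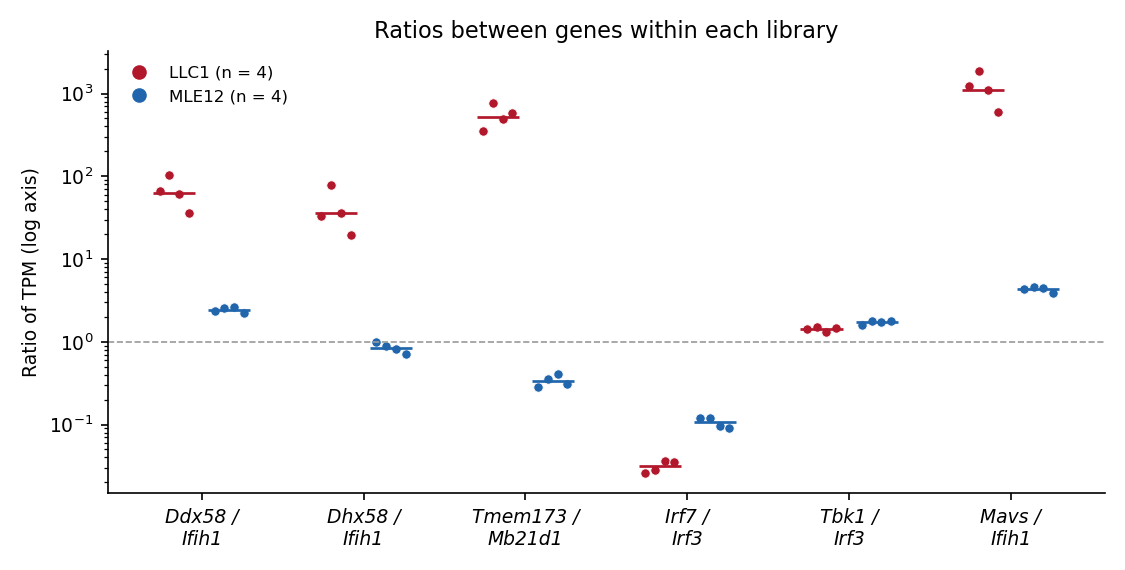
Ratio of the TPM of 2 genes within each library on a log axis, LLC1 in red and MLE12 in blue; points are libraries, lines are geometric means (n = 4 per line) and the dashed line marks equal levels. The ratio of Tmem173 to Mb21d1 runs from 356 to 766 in LLC1 and from 0.283 to 0.406 in MLE12, while that of Tbk1 to Irf3 lies between 1.3 and 1.8 in all 8 libraries.

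How low a sensor RNA stood can be read from its level in the low line as a percent of that in the high line on plain library totals. Mb21d1 in LLC1 was at 0.678% of its MLE12 level, Ifih1 at 0.839%, Tlr3 at 2.53% and Ddx58 at 19.3%. Whether the few LLC1 counts of Mb21d1 and Ifih1 are transcripts of LLC1 cells was not tested. Tmem173 in MLE12 was at 9.63% of its LLC1 level.

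Mavs, the mitochondrial adaptor of RIG-I and MDA5 (ENSMUSG00000037523, chromosome 2, 131234063 to 131248025), was also higher in LLC1 but by much less. It was at 57.6, 57.6, 65.4 and 64.7 CPM in LLC1 and at 29.8, 32.0, 29.4 and 28.2 CPM in MLE12. The lines did not overlap, and the log2 fold change was 1.04 ± 0.06, or 2.05-fold (adjusted p = 2.04e-12). Against a minimum fold of 2 the adjusted p was 0.27, though Mavs passed that test with upper-quartile scaling. Per length, Mavs was 593 to 1880 times Ifih1 in LLC1 and 3.89 to 4.59 times in MLE12, a difference of 8.0 on the log2 scale (exact permutation p = 0.0286). Mavs and Ifih1 each separated the lines, in opposite directions, so that p was likewise fixed by the single-gene levels.

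The kinase and the factor at the end of the routes differed least. Tbk1 (ENSMUSG00000020115, chromosome 10, 121546455 to 121586794) was at 45.2, 47.5, 45.6 and 45.8 CPM in LLC1 and at 67.3, 68.1, 69.8 and 66.6 CPM in MLE12. It was higher in MLE12 in all libraries, by 1.48-fold (-0.56 ± 0.04, adjusted p = 2.96e-10). Irf3 (ENSMUSG00000003184, chromosome 7, 44997648 to 45002848) was at 32.9, 33.2, 36.8 and 33.2 CPM in LLC1 and at 44.6, 39.9, 42.8 and 39.8 CPM in MLE12. The highest LLC1 library came near the lowest MLE12 library without reaching it, and the difference was 1.23-fold (-0.30 ± 0.05, adjusted p = 6.47e-05). More than 3 in 4 of all genes, 77.0%, differed by more than Irf3. The spans of Irf3 and of Bcl2l12 on the other strand share 1065 bases. How many of these are exon in both genes was not determined. Bcl2l12 was itself higher in MLE12 (-0.44 ± 0.07). Without a stated counting strand, reads from exon bases of both genes cannot be told apart.

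Irf7, the factor that amplifies interferon production after induction (ENSMUSG00000025498, chromosome 7, 141262706 to 141266481), was low in both lines. It was at 0.809, 0.879, 1.28 and 1.12 CPM in LLC1 and at 5.07, 4.55, 3.92 and 3.42 CPM in MLE12. No LLC1 library reached the lowest MLE12 library, and the log2 fold change was -2.05 ± 0.17, or 4.14-fold (adjusted p = 2.06e-09). The span of Irf7 overlaps that of its abundant neighbour Phrf1, on the other strand, by 45 bases. The ratio of Irf7 to Irf3 per length was 0.0259 to 0.0367 in LLC1 and 0.0906 to 0.12 in MLE12, a log2 difference of -1.76, and that of Tbk1 to Irf3 was 1.3 to 1.5 and 1.59 to 1.8, a log2 difference of -0.27 (exact permutation p = 0.0286 for each).

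**Figure D3:**
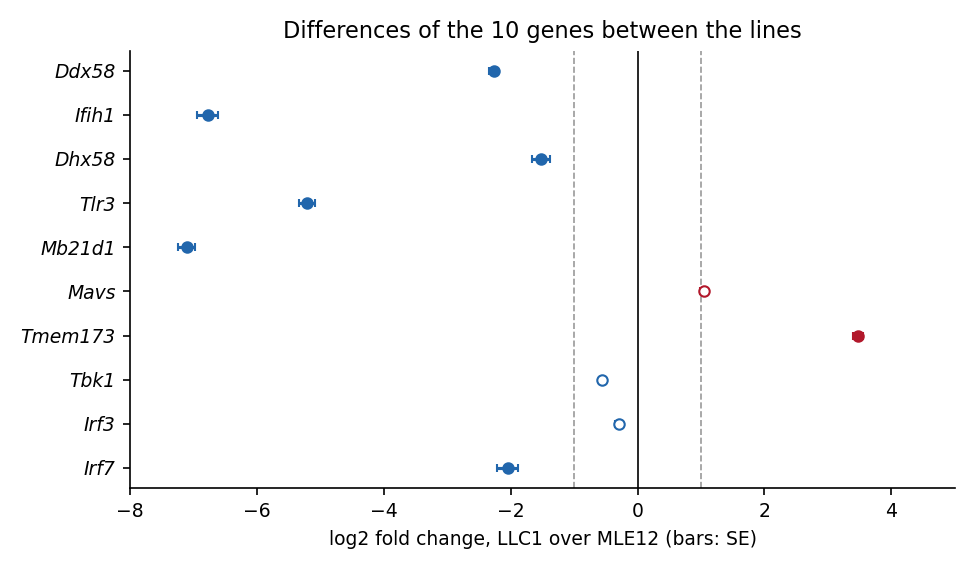
Log2 fold change of each of the 10 genes, LLC1 over MLE12, with SE bars; filled points passed the test against a fold change of 2, open points passed only the test against no difference, and dashed lines mark a 2-fold difference. The values run from -7.11 for Mb21d1 to 3.47 for Tmem173, and Mavs, Tbk1 and Irf3 are open.

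Comparing genes per length within a line gave a different order in each. In LLC1 the order by TPM began with Tmem173 (47.0 ± 4.17), Mavs (40.9 ± 4.63), Tbk1 (33.8 ± 2.11) and Irf3 (23.8 ± 1.97). All 4 belong to the adaptors, kinase and factors. After a wide gap came Ddx58 (2.32 ± 0.357), Dhx58 (1.37 ± 0.276), Irf7 (0.759 ± 0.187) and Tlr3 (0.345 ± 0.0593), and last Mb21d1 (0.0913 ± 0.0234) and Ifih1 (0.0416 ± 0.0247). The ranges over libraries overlapped only between Tmem173 and Mavs and between Mb21d1 and Ifih1 among neighbours in this order. In MLE12 the order began with Tbk1 (58.4 ± 1.54), Irf3 (34.1 ± 2.00) and Mavs (23.2 ± 1.58). Tlr3 (14.9 ± 1.66) and Mb21d1 (14.7 ± 0.396) followed with overlapping ranges, then Ddx58 (13.1 ± 0.632). The lowest 4 in MLE12, Ifih1 (5.38 ± 0.234), Tmem173 (4.94 ± 0.706), Dhx58 (4.58 ± 0.642) and Irf7 (3.66 ± 0.662), each overlapped their neighbour among these 4. The levels of all 10 genes thus lay within 3.66 to 58.4 TPM in MLE12 and spread from 0.0416 to 47.0 TPM in LLC1. With exon lengths from GENCODE M21 in place of the deposited lengths, an alternative chosen after seeing the data, Mavs (40.9) came before Tmem173 (39.5) in LLC1, and in MLE12 Mb21d1 (14.7) and Ddx58 (13.1) came before Tlr3 (12.6), with Ddx58 and Tlr3 overlapping, and Dhx58 (4.58) before Tmem173 (4.15).

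**Figure D4:**
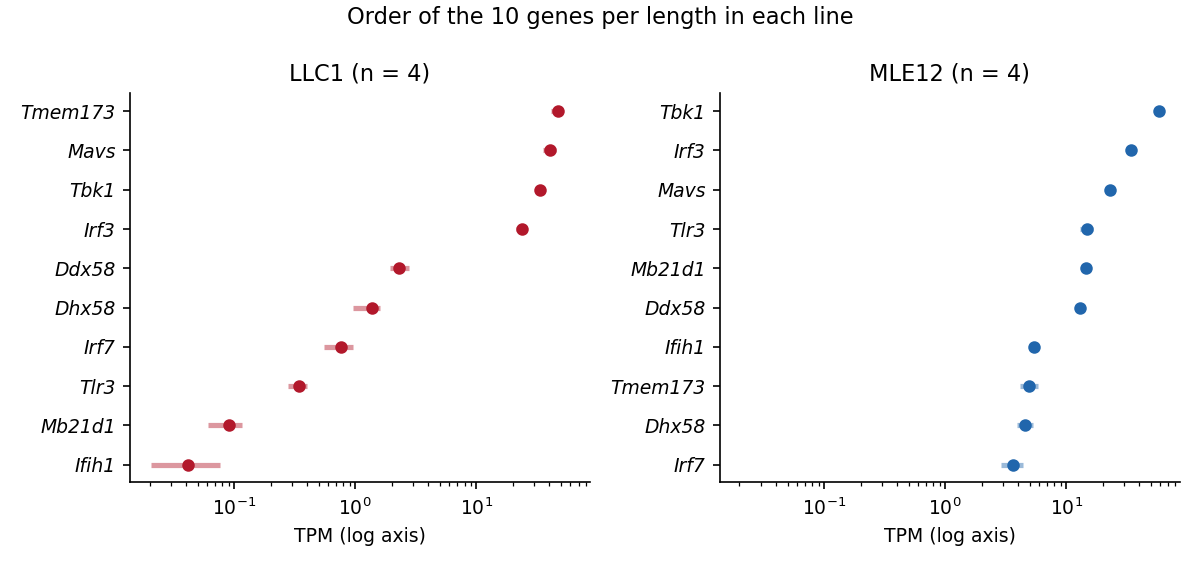
TPM of the 10 genes in LLC1 and in MLE12, ordered by the mean in each line, on a log axis; points are means and bars the range over 4 libraries. In LLC1 Irf3 (23.8 TPM) and Ddx58 (2.32 TPM) are separated by a wide gap, and in MLE12 all genes lie between 3.66 and 58.4 TPM.

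Genes that work around the sensors were described from lists by their role. The calls in this list and those that follow stand beside 40.7% of all genes called higher in LLC1 and 40.9% higher in MLE12. No list was tested against these shares. Of 28 other sensors of RNA or DNA, 24 were tested, 8 higher in LLC1 and 14 higher in MLE12, with a median log2 fold change of -0.47. The endosomal RNA receptor Tlr7 was at 0.196 ± 0.15 CPM in LLC1 but 12.3 ± 0.927 CPM in MLE12 (-6.02 ± 0.21, adjusted p = 1.03e-14). The OAS-like genes Oasl1 (-7.30 ± 0.28) and Oasl2 (-7.97 ± 0.30) reached 6.69 and 6.86 CPM in MLE12. Over all LLC1 libraries they had only 8 and 5 counts, so the size of these differences is imprecise. Lrrfip1 (1.47 ± 0.04) and the helicase gene Ddx41 (0.29 ± 0.05), both described as sensors of nucleic acid, were higher in LLC1. Zcchc3, chosen after its values were seen, encodes a cofactor of cGAS and of the RNA helicases and was at 0.227 ± 0.0463 CPM in LLC1 but 12.0 ± 1.05 CPM in MLE12 (-5.71 ± 0.15).

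Adaptor and kinase genes between the sensors and IRF3 or NF-κB were mixed. Of 21 listed, 20 were tested, 6 being higher in LLC1 and 9 in MLE12, while 5 did not pass, with a median of -0.04. Ikbke, which encodes the closest relative of TBK1, was higher in LLC1, at 19.0 ± 0.743 CPM against 1.06 ± 0.298 CPM (4.15 ± 0.13, adjusted p = 4.36e-16), the opposite direction to Tbk1. Tbkbp1, a scaffold of TBK1, stood at 76.7 ± 5.33 and 12.3 ± 1.37 CPM in LLC1 and MLE12 (2.64 ± 0.07). Traf5 was also higher in LLC1 (5.08 ± 0.14). Higher in MLE12 were Optn (-3.31 ± 0.07), an autophagy receptor that is a TBK1 substrate, Ikbkb (-1.18 ± 0.04) and Tradd (-1.07 ± 0.06). Traf3, the ubiquitin ligase shared by the MAVS and TICAM1 routes, did not pass the test (51.3 ± 2.36 and 50.9 ± 2.90 CPM, 0.01 ± 0.05, adjusted p = 0.858).

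Among 19 tested cofactors and ubiquitin ligases described as raising signalling, 7 were higher in LLC1 and 8 in MLE12, with a median of 0.03. Trim25, which ubiquitinates RIG-I, stood at 76.1 ± 3.10 CPM in LLC1, below its 113 ± 2.58 CPM in MLE12 (-0.58 ± 0.04, adjusted p = 2.64e-10). Zdhhc1 (1.94 ± 0.07), Tmem203 (1.36 ± 0.09) and Trim65 (1.03 ± 0.06) were higher in LLC1; the first pair are described as STING partners and the last as an MDA5 ligase. Insig1 (-0.74 ± 0.04), described as a cofactor of STING, was higher in MLE12. Of 27 tested inhibitors and nucleases, 13 were higher in LLC1 and 12 in MLE12, with a median of 0.12. Trex1, the exonuclease that removes cytosolic DNA, differed little (8.19 ± 0.408 and 6.74 ± 0.625 CPM, 0.28 ± 0.09, adjusted p = 0.00891). Enpp1, which hydrolyses cyclic GMP-AMP outside cells, had 1 count in LLC1 and 1814 in MLE12, a ratio of 1270 (95% counting interval 228 to 50300). Cyld (-1.62 ± 0.06) and Tnfaip3 (-1.55 ± 0.11), deubiquitinases that limit signalling, were higher in MLE12, and Nlrc3 (1.51 ± 0.10), Pcbp2 (0.94 ± 0.05) and Rbck1 (0.72 ± 0.06) in LLC1.

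Of 12 tested genes for other IRF proteins, NF-κB, the type I interferon receptor and the factors it activates, 2 were higher in LLC1 and 9 in MLE12, with a median of -0.82. Irf1 (-1.98 ± 0.07), Irf9 (-1.84 ± 0.07) and Ifnar1 (-1.40 ± 0.05) were higher in MLE12, as was Ifnar2 (-0.53 ± 0.05). Irf8, a factor known mainly from myeloid cells, was higher in LLC1, at 7.07 ± 0.913 CPM against 0.0429 ± 0.0332 CPM (7.42 ± 0.28), and so was Nfkb1 (0.82 ± 0.05). The dendritic and myeloid gene Itgax was likewise higher in LLC1 (7.34 ± 0.685 and 0.0292 ± 0.0195 CPM), with Ptprc at 0 there. Other leukocyte genes were mixed: Cd68 (1.94 ± 0.11) was higher in LLC1, and Cd74 (-1.82 ± 0.20) and Csf1r (-0.29 ± 0.08) were higher in MLE12. Of the 10 interferon genes listed, Ifnb1, Ifnl2, Ifnl3 and 5 Ifna genes were at 0 in every library, which allows up to 0.0147 CPM over LLC1 and 0.011 CPM over MLE12 (3 counts of the line's total). The others were not tested: Ifnab had 2 counts over LLC1, fewer than those 3, and Ifne had 17, with 0 over MLE12 for both. All 7 tested early targets of IRF3 and of interferon were higher in MLE12, with a median of -3.29. Isg15, which encodes a ubiquitin-like modifier, reached 10.3 ± 1.75 CPM there, beside 0.366 ± 0.0823 CPM in LLC1. Ifit2 differed least, 29.0 ± 1.60 against 36.0 ± 2.25 CPM (-0.31 ± 0.06, adjusted p = 6.17e-05), and Isg20 differed by -0.76 ± 0.11.

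**Figure D5:**
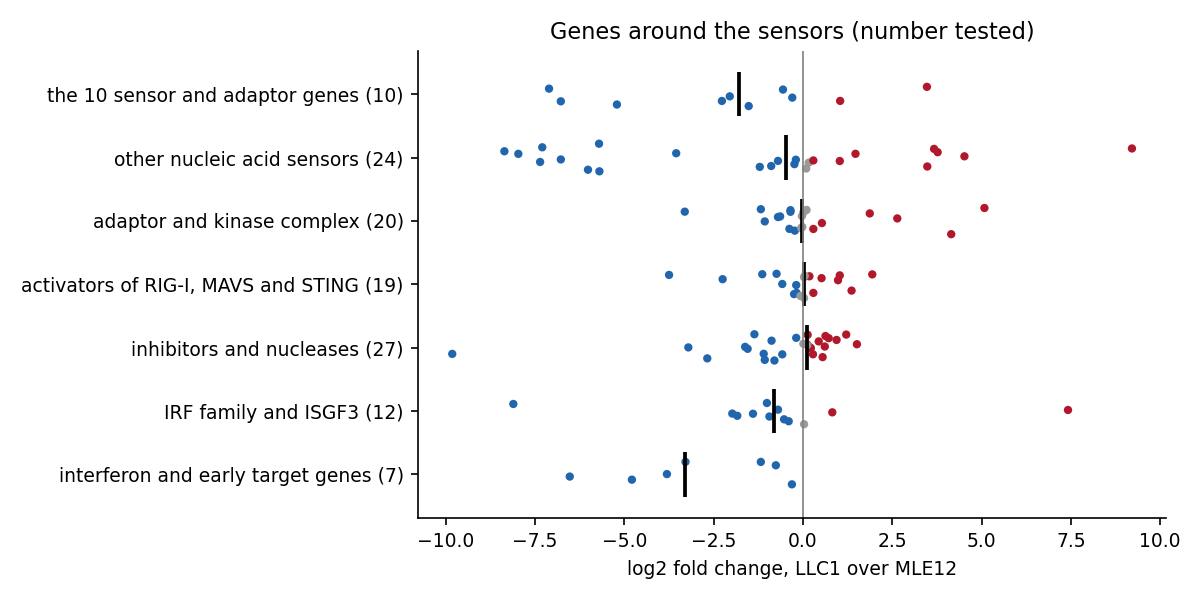
Log2 fold change, LLC1 over MLE12, of each tested gene in 7 groups by role; red points were called higher in LLC1, blue higher in MLE12, grey not called, and black bars are medians. The medians run from -3.29 for interferon and early target genes to 0.12 for inhibitors and nucleases; fitted values of genes with 3 or fewer counts in a line, such as Enpp1, depend on the prior count.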

How the data were processed

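The deposited table gives raw counts per gene for 43346 Ensembl mouse genes with a length in bases. The submitters' processing notes list build mm10 and the tools CASAVA, TopHat2, featureCounts and edgeR, without the role of each; versions, strand setting and annotation release are not given in the sources used here. The length column is called coding length per the file headers, but equals the GENCODE M21 exon union for 5 of the 10 members and is shorter for the others. TPM was computed from it, without further scaling. In every library more genes had 2 counts than 1; whether both mates of a pair were counted is not given.

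Counts were fitted with edgeR 4.0.16 in R 4.3.3 (filterByExpr, TMM, robust glmQLFit, glmQLFTest, glmTreat against a fold of 2), without covariates, and called at an adjusted p under 0.05; the fit was tested on simulated data. SE is the log2 fold change over the square root of F. Ratios were tested by exact permutation (scipy 1.17.1). Alternatives used DESeq2 1.42.0, limma 3.58.1, other scalings and filters, halved counts, a block and libraries left out. No library copied another (chi-square per degree of freedom 6.35 to 53.1). The members and lists were chosen with earlier results of these data known. Named genes are all members, fixed pathway genes, and, in each list and direction, the 3 called genes that changed most among those reaching 5 CPM in the higher line. The fixed ones are Ticam1, Ikbke, Traf3, Trim25, Trex1, Irf9, Ifnar1, Ifnar2 and Ifnb1. Some genes that this rule names are not reported here.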

Additional observations from a re-analysis of the deposited data

Results flagged for a closer look

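Irf3 in LLC1 replicate 3 stood at 36.8 CPM, apart from the other LLC1 libraries at 32.9 to 33.2 CPM: its gap to the nearest library was 0.92 of the group's whole range, above Dixon's critical value for groups of 4. It was the only such library among 32 groups of 4 examined (10 genes and 6 ratios in each line), where chance flags about 1 group in 20.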

How the results depend on the processing

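The 10 members kept their direction and their side of the threshold under all 18 alternatives, with 8 called higher in MLE12 and 2 in LLC1 throughout. Log2 fold changes ranged from -7.25 to -6.94 for Mb21d1, -7.22 to -6.53 for Ifih1, 3.37 to 3.56 for Tmem173, 0.94 to 1.10 for Mavs and -0.39 to -0.24 for Irf3. Over 2-fold, the count higher in LLC1 was 2 in place of 1 with upper-quartile factors, which added Mavs. With the replicate number as a block, 7380 and 7415 genes were called higher in LLC1 and MLE12, in place of 7554 and 7578. No member's call changed. Whether same-numbered libraries share more than a number is not given in the labels. Their deviations correlated at -0.20, 0.16, 0.15 and -0.41. Most libraries correlated best with a library of another number, such as LLC1 replicate 1 with MLE12 replicate 4 (0.45). Such correlations cannot decide whether a batch was shared. With any 1 library left out, the exact permutation test of a ratio cannot fall below p = 0.0571, so all 6 then missed the threshold by construction. The log2 differences then ran from 4.44 to 4.95 for Ddx58 to Ifih1, 5.07 to 5.74 for Dhx58 to Ifih1, 10.45 to 10.82 for Tmem173 to Mb21d1, -1.84 to -1.68 for Irf7 to Irf3, -0.31 to -0.23 for Tbk1 to Irf3 and 7.75 to 8.30 for Mavs to Ifih1. Depth limits the LLC1 levels of Ifih1 and Mb21d1, which rest on 4 to 14 counts per library.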

Other observations

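The sensors named here were chosen after their values were seen. Tlr9, the endosomal receptor of DNA, had 246 counts over the LLC1 libraries and 0 over those of MLE12, at least 117-fold higher against a floor of 3 counts over the line, while Tlr7 and Tlr3 were higher in MLE12. The inflammasome receptor gene Nlrp3 had a mean of 0.847 ± 0.198 CPM in LLC1 against 0.0322 ± 0.049 CPM in MLE12 (4.52 ± 0.54). Mnda and Ifi205, of the PYHIN family of DNA-binding proteins, were higher in LLC1 (3.48 ± 0.21 and 3.77 ± 0.58), but the closely related copies of this family make the split of their reads uncertain. Aim2, the PYHIN sensor that assembles an inflammasome on DNA, was higher in MLE12 (LLC1 23.0 ± 2.19, MLE12 53.0 ± 3.72 CPM, -1.21 ± 0.07, adjusted p = 4.29e-12 by edgeR).

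Oas1a had 2 counts over LLC1 and 1125 over MLE12, a ratio of 395 (95% counting interval 109 to 3260), and how its reads divide among the closely related Oas1 genes is uncertain.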
